A study of Mus musculus with 18 samples.

Results

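The genes described here encode the extracellular and membrane metalloproteinases of the mouse and their tissue inhibitors: the matrix metalloproteinases (Mmp), the ADAM proteins (a disintegrin and metalloproteinase), their secreted relatives with thrombospondin motifs (Adamts) and the tissue inhibitors of metalloproteinases (Timp). Members were taken by gene symbol, and these families were chosen with earlier results of these data known. In all, 69 of the 37319 genes in the expression table carried such a symbol, of which 21 were Mmp, 25 Adam, 19 Adamts and 4 Timp genes. RNA came from the cortex on the operated side of male C57BL/6J mice, listed at 8 to 10 weeks and 24 to 26 g in every group. Every mouse had received an adeno-associated virus (AAV) into the left lateral ventricle. In the Tiparp arm (AAV-SYN-shRNA-TIPARP) its hairpin RNA, driven by the neuronal synapsin promoter, was directed against a mono-ADP-ribosyltransferase, Tiparp, and in the control arm (AAV-SYN-shRNA-Con) the hairpin was scrambled. The mice were operated on 4 weeks after the virus: some had sham surgery, and the others a transient occlusion of the middle cerebral artery (tMCAO), a stroke model, with tissue taken 24 h or 28 d after it. No time from surgery to tissue was listed for sham. If the listed age refers to the same step in all groups, the 28 d mice were older than the 24 h mice at tissue collection. Age and time after tMCAO then cannot be told apart. The 6 groups, sham, 24 h and 28 d in the Tiparp arm and in the control arm, held 3 libraries each, and all 18 mouse libraries thus carried a virus and none came from an uninjected brain. The labels name neither pooled animals nor which library came from which mouse, so p-values here measure the spread between these libraries.

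Matrix metalloproteinases are made as inactive precursors, are activated by removal of a propeptide, and cleave collagens, proteoglycans and other matrix proteins; in the injured brain they are known for attacking the basement membrane and tight junctions of vessels. ADAM proteins mostly sit in the plasma membrane and release ectodomains of growth factors, cytokines and receptors, whereas ADAMTS proteins act in the matrix, several of them on the chondroitin sulfate proteoglycans that surround neurons. The TIMP proteins bind the active site of matrix metalloproteinases, and Timp3 also restrains several ADAM and ADAMTS proteases.

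Promoter sequence of 4 members is shown for the letters of a short element. Of the 8 members in the chromosome 9 cluster of Mmp genes, 6 held these letters in at least 1 listed window. The window of Timp1, the member with the greatest difference at 24 h, did not. The lines give the 250 bases before the RefSeq transcription start, 5′ to 3′ on the plus strand of GRCm38.p6, with the AP-1 letters TGAGTCA or their reverse complement TGACTCA in capitals. The windows are chr9:7272264-7272513 for Mmp13, chr9:7347124-7347373 for Mmp12, chr9:7445572-7445821 for Mmp3 and chrX:20869916-20870165 for Timp1.
Mmp13: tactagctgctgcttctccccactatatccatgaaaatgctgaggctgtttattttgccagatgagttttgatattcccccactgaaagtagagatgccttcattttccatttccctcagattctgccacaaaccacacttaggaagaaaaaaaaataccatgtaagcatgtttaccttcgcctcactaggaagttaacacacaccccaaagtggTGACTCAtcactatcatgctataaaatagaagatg
Mmp12: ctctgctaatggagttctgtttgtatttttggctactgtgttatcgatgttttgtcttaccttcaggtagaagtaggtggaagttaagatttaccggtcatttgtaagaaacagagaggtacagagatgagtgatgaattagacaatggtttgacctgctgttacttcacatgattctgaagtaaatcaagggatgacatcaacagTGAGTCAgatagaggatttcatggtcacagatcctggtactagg
Mmp3: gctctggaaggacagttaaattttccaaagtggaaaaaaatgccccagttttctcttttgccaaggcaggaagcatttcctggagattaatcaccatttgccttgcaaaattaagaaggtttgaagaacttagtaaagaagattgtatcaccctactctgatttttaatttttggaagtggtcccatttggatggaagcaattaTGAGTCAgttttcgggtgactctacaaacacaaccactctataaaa
Timp1: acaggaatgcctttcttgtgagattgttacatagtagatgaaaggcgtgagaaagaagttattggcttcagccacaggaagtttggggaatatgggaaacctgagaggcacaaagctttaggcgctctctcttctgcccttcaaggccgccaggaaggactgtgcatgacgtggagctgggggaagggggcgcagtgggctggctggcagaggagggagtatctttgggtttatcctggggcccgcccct
The AP-1 letters began 35 bases before the start in Mmp13, 44 in Mmp12 and 46 in Mmp3. RefSeq lists a second start for Mmp12, whose window had no match. Both strands were searched, and no other motif was. A promoter entry was found for 42 of the 69 members, and 7 of these 42 genes (16.7%) held the letters in at least 1 window, against 1395 of the 27025 genes in the whole promoter table (5.16%). Counted by window, 1466 of 32851 in the whole table held them (4.46%). Adam19 was 1 of the 7, and the other 6 belonged to the 8 members clustered on chromosome 9 (Mmp13, Mmp12, Mmp3, Mmp1a, Mmp10, Mmp8, Mmp27 and Mmp7). Other genes may lie between these members, and Mmp1b, which overlaps Mmp12, was not among the members. Of the 8 members called higher at 24 h that had a promoter entry, Mmp3 alone held the letters, while Mmp1a and Mmp10, which also held them, never exceeded 0.0299 and 0.0356 FPKM. A match describes the letters in this window and is no measurement of binding.

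Values are FPKM (fragments per kilobase of transcript, scaled to the size of the library), which are scaled per length, so levels may be compared between genes. A gene was tested if 3 or more of the libraries compared had 1 FPKM or more, on log2(FPKM + 1), with limma and Benjamini-Hochberg adjustment over all tested genes; a call is an adjusted p below 0.05, and a difference is given on that log2 scale, which understates changes of low genes. By this filter 32 of the 69 members were tested in at least 1 comparison. The other 37 (13 Mmp, 14 Adam and 10 Adamts) were tested in none, and 29 of them stayed below 1 FPKM in all 18 libraries; most Adam genes among them are known from the germ line. The value of a member tested in no comparison reached at most 4.17 FPKM, for Mmp8 in 24 h control library 3.

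Libraries of one group were alike in sham (Pearson r of log2 values across genes 0.980 to 0.984) and less so after tMCAO (0.944 to 0.980). The summed FPKM of 7 neuronal markers, 517 to 1008 over the 18 libraries, fits a brain sample, but the summed striatal markers varied from 38.2 to 376 FPKM, and Ttr, a marker of the choroid plexus, exceeded 500 FPKM in sham Tiparp libraries 1 and 2, 24 h control library 3 and 28 d Tiparp library 2. The level of Tiparp itself overlapped between the arms in sham, at 24 h and at 28 d. It was 4.17, 4.95 and 4.57 FPKM in sham Tiparp libraries and 4.45, 4.76 and 3.77 FPKM in sham control libraries (difference 0.06, adjusted p = 0.817). At 24 h it was 3.99, 5.00 and 3.00 FPKM in Tiparp libraries and 6.66, 4.60 and 8.65 FPKM in control libraries (-0.60, adjusted p = 0.668). At 28 d it was 3.97, 4.06 and 3.72 FPKM in Tiparp libraries and 4.46, 3.59 and 3.77 FPKM in control libraries (-0.0040, adjusted p = 0.9999). The knockdown that the label names was thus not detected in RNA of the whole tissue, and arms are named here as labelled.

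At 24 h after tMCAO the inhibitor Timp1, 4 matrix metalloproteinases, 4 ADAM genes and 3 ADAMTS genes were higher than in sham, and 1 ADAMTS gene was lower. Both arms entered this comparison, with arm as a term, and 31 members were tested. The 12 members called higher were Timp1, Mmp3, Mmp9, Mmp14, Mmp19, Adam8, Adam9, Adam15, Adam17, Adamts1, Adamts4 and Adamts9, and Adamts20 was called lower. Over all genes 24.7% of 14589 were called (19.3% higher and 5.38% lower), so the members' 13 of 31 stand beside a table in which calls were common; 78.2% of these calls were higher, against 58.1% after median-ratio scaling. The median difference was 0.13 over the tested members and 0.10 over all tested genes. Of the 31, 7 had fewer than 3 sham libraries at 1 FPKM and so passed the filter mainly through the 24 h libraries, and 6 of these 7 were called higher; among the other 24, 6 were called higher. RNA from whole tissue cannot tell fewer cells of a type from less RNA per cell.

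**Figure D1:**
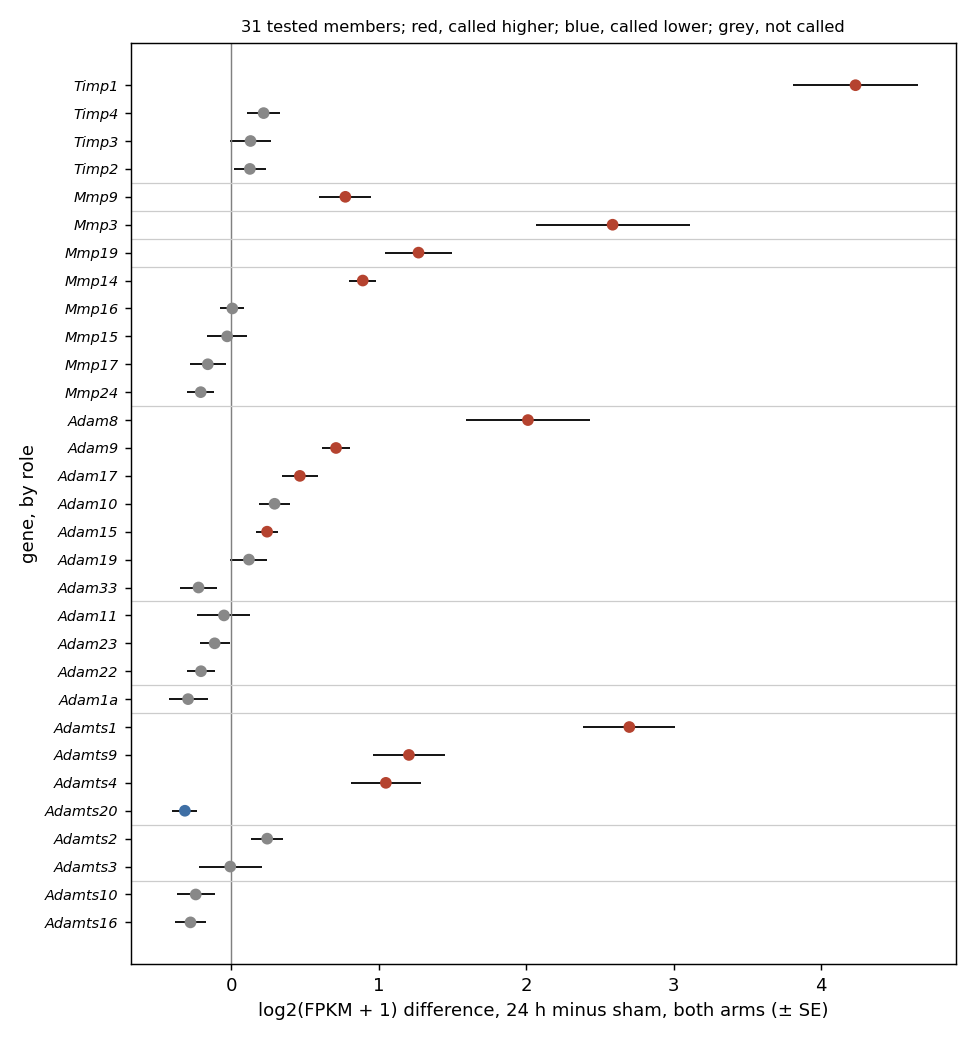
Differences of the 31 tested members between 24 h and sham libraries of both arms on the log2(FPKM + 1) scale (x axis), by gene and role (y axis), with bars for the standard error; red marks members called higher, blue lower and grey those not called. Timp1 lies at 4.23, Adamts1 at 2.70 and Mmp3 at 2.59, and Adamts20 is the blue point, at -0.32.

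Among the inhibitors only Timp1 passed the test at 24 h. Timp1 reached 1 FPKM in fewer than 3 sham libraries and so passed the filter mainly through 24 h libraries. Timp1 (ENSMUSG00000001131), the inducible member of the family, had 18.2, 29.5 and 5.66 FPKM in 24 h Tiparp libraries and 79.0, 32.2 and 89.4 FPKM in 24 h control libraries. It had 0.522, 0.728 and 0.549 FPKM in sham Tiparp libraries and 0.584, 1.04 and 0.592 FPKM in sham control libraries. Every 24 h library exceeded every sham library, with 24 h Tiparp library 3 the lowest of the 6. The means were 42.3 ± 33.9 FPKM at 24 h and 0.669 ± 0.194 FPKM in sham (SD, n = 6 each), a difference of 4.23 (SE 0.42, adjusted p = 0.000215 by limma).

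Timp2 (ENSMUSG00000017466), which with Mmp14 takes part in activating Mmp2, was the inhibitor with the highest level in sham. It had 54.8 to 92.7 FPKM at 24 h (median 73.0) and 59.2 to 74.4 FPKM in sham (median 66.3), and these ranges overlap (difference 0.13, adjusted p = 0.408). Timp3 (ENSMUSG00000020044), which is bound to the matrix, had 10.8, 11.0 and 12.3 FPKM in 24 h Tiparp libraries, 16.5, 12.2 and 20.7 FPKM in 24 h control libraries, 12.0, 14.3 and 12.5 FPKM in sham Tiparp libraries and 11.6, 11.9 and 11.7 FPKM in sham control libraries. For Timp3 the high values stood in the 24 h control libraries, and the call was not reached (difference 0.13, adjusted p = 0.507). Timp4 (ENSMUSG00000030317) had 4.49 to 7.57 FPKM at 24 h (median 6.48) and 3.97 to 6.07 FPKM in sham (median 5.77), also with overlap (difference 0.22, adjusted p = 0.170).

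Timp1, Timp3 and Timp4 lie inside the synapsin genes Syn1, Syn3 and Syn2, on the opposite strand. The libraries kept strand by the labels' protocol, but whether quantification used it is not given in the sources used here. Syn1 had 90.8 to 237 FPKM at 24 h and 183 to 240 FPKM in sham, and 24 h control library 3, with 89.4 FPKM of Timp1, had the 90.8 FPKM of Syn1. Of the 13 called members, 7 overlap a gene on the opposite strand (Timp1, Mmp19, Adam8, Adam15, Adam17, Adamts4 and Adamts9).

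**Figure D2:**
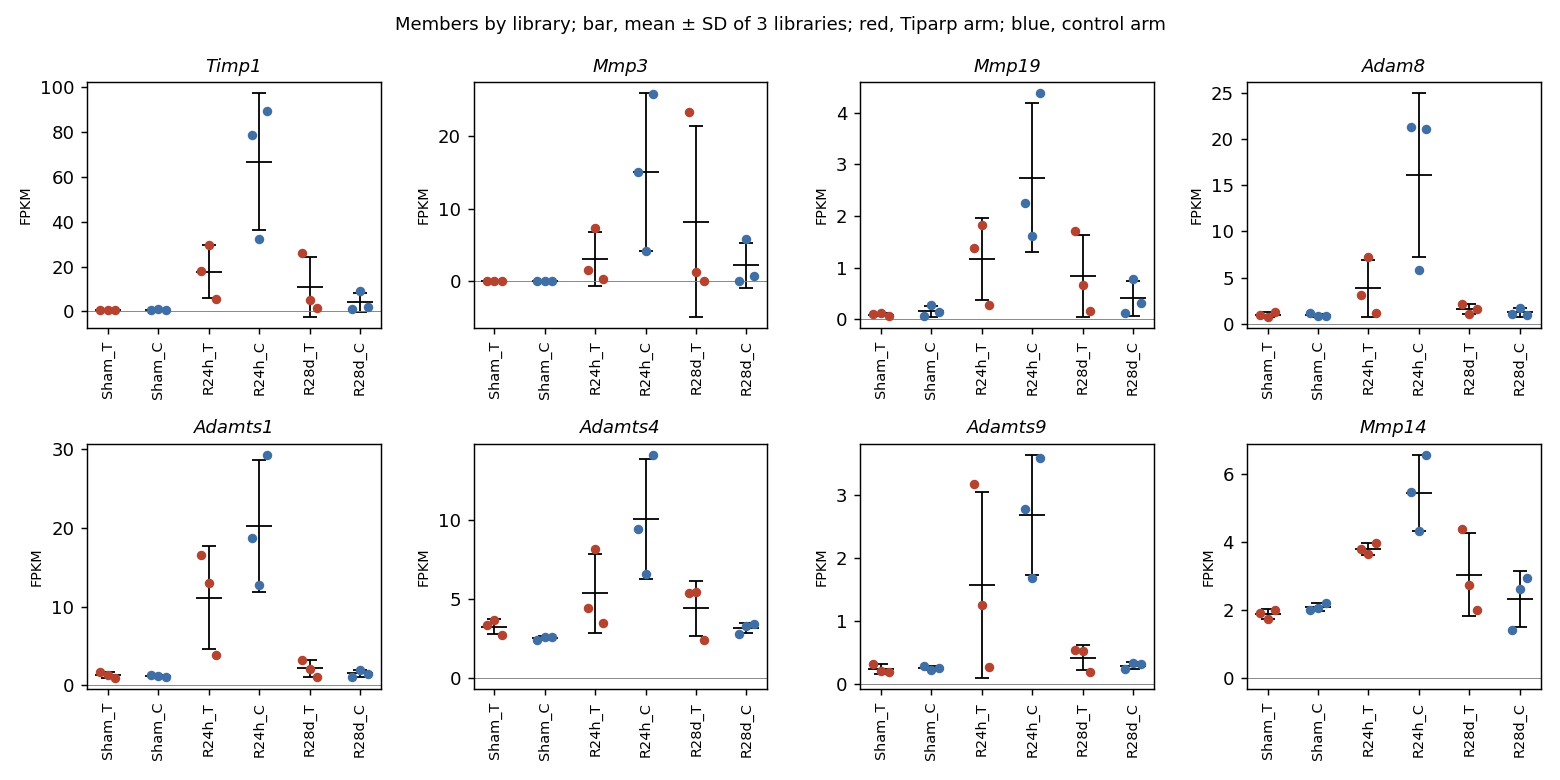
FPKM of single members (y axis of each panel, linear from 0) in each of the 18 libraries by group (x axis), with the mean and SD of 3 libraries; red is the Tiparp arm and blue the control arm. Timp1 reaches 89.4 FPKM at 24 h in the control arm and 26.1 FPKM at 28 d in the Tiparp arm, where the other 2 libraries have 4.95 and 1.51 FPKM.

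Among the matrix metalloproteinases, 4 of the 8 tested rose at 24 h and none fell, where 19.3% of all tested genes were higher. Mmp3, Mmp9 and Mmp19 passed the filter only through 24 h libraries, so this count is no support for a change of the family. Mmp3 (ENSMUSG00000043613), stromelysin-1, which cleaves many matrix proteins and activates other metalloproteinases, had 1.62, 7.32 and 0.270 FPKM in 24 h Tiparp libraries and 15.1, 4.22 and 25.9 FPKM in 24 h control libraries. In sham it had 0.0685, 0.0340 and 0 FPKM in Tiparp libraries and 0.0510, 0.0495 and 0.0969 FPKM in control libraries. The groups did not overlap, and the 24 h values spread from 0.270 to 25.9 FPKM (difference 2.59, SE 0.52, adjusted p = 0.00573). Mmp19 (ENSMUSG00000025355), a secreted proteinase with broad matrix substrates, had 1.39, 1.83 and 0.284 FPKM in 24 h Tiparp libraries, 2.26, 1.61 and 4.37 FPKM in 24 h control libraries, and 0.0638 to 0.280 FPKM in sham. Its lowest 24 h value lay just above its highest sham value (difference 1.27, SE 0.23, adjusted p = 0.00312).

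Mmp14, the membrane-type proteinase that activates Mmp2, was the most uniform of the 4. It averaged 4.64 ± 1.15 FPKM at 24 h and 1.99 ± 0.166 FPKM in sham (SD, n = 6 each), with 3.65 FPKM as the lowest 24 h and 2.23 FPKM as the highest sham value (difference 0.89, SE 0.09, adjusted p = 0.000266). Mmp9, the gelatinase that is known from stroke studies for its action on the basement membrane, stayed low: it averaged 1.52 ± 0.969 FPKM at 24 h and 0.398 ± 0.0778 FPKM in sham (SD, n = 6 each). Its groups did not overlap either (difference 0.77, SE 0.18, adjusted p = 0.00995), but Mmp9 met the filter through 3 libraries alone (24 h Tiparp library 2 and 24 h control libraries 1 and 3) and was untested without any of them. The other gelatinase, Mmp2, was too low to be tested here, at 0.485 to 0.784 FPKM at 24 h and 0.277 to 0.630 FPKM in sham.

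The membrane-type proteinases with the highest levels did not pass the test. Mmp17 averaged 18.3 ± 3.96 FPKM at 24 h and 20.1 ± 1.29 FPKM in sham (SD, n = 6 each; adjusted p = 0.357), and Mmp24, a neuronal membrane-type proteinase, averaged 6.96 ± 0.731 FPKM at 24 h and 8.21 ± 0.971 FPKM in sham (adjusted p = 0.109). Mmp15 and Mmp16 had differences with adjusted p of 0.897 and 0.964. Of the untested members near 0 in sham, Mmp12, macrophage metalloelastase, had 0.0229, 0.995 and 0.0126 FPKM in 24 h Tiparp libraries, 1.95, 0.473 and 2.60 FPKM in 24 h control libraries, and at most 0.00846 FPKM in sham. Mmp8, neutrophil collagenase, had 0.0251 to 4.17 FPKM at 24 h and 0 to 0.0254 FPKM in sham, and its groups overlapped. Along the chromosome 9 cluster Mmp13 reached 0.328 FPKM, Mmp27 0.209 FPKM and Mmp7 0.111 FPKM in any library.

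Among the ADAM genes, 4 of the 11 tested rose and none fell, where 19.3% of all tested genes were higher and 5.38% lower. Adam8 reached the filter value in too few sham libraries and passed the filter mainly through 24 h libraries. This count is therefore no support for a change of the family. Adam8 (ENSMUSG00000025473), a sheddase of leukocytes and activated glia, had 3.13, 7.21 and 1.19 FPKM in 24 h Tiparp libraries and 21.3, 5.84 and 21.1 FPKM in 24 h control libraries. In sham it had 0.980, 0.775 and 1.25 FPKM in Tiparp libraries and 1.13, 0.902 and 0.814 FPKM in control libraries. The groups overlapped in that 24 h Tiparp library 3 lay under the highest sham library (difference 2.01, SE 0.42, adjusted p = 0.00686). Adam9, a widely expressed sheddase, averaged 16.4 ± 2.33 FPKM at 24 h and 9.57 ± 0.635 FPKM in sham (SD, n = 6 each), with no overlap (difference 0.71, SE 0.09, adjusted p = 0.000777).

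Adam17, the enzyme that releases TNF from the cell surface, averaged 2.79 ± 0.870 FPKM at 24 h and 1.69 ± 0.125 FPKM in sham (difference 0.46, SE 0.12, adjusted p = 0.0197). Adam15 averaged 12.98 ± 2.02 FPKM at 24 h and 10.8 ± 1.05 FPKM in sham (difference 0.24, SE 0.07, adjusted p = 0.0302). Both calls had overlapping groups, and both were lost in some of the other settings tried, as was that of Adamts20. Adam10, the main alpha-secretase of neurons, averaged 11.3 ± 1.92 FPKM at 24 h and 9.05 ± 1.31 FPKM in sham and was not called (adjusted p = 0.0630). The 3 ADAM proteins of the brain that lack protease activity and act as adhesion or LGI receptors were not called: Adam11 averaged 27.9 FPKM at 24 h and 29.6 FPKM in sham, Adam22 10.6 FPKM at 24 h and 12.2 FPKM in sham, and Adam23 3.46 FPKM at 24 h and 3.78 FPKM in sham.

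Among the ADAMTS genes, 3 of the 8 tested rose and 1 fell, where 19.3% of all tested genes were higher and 5.38% lower. Adamts9 passed the filter only through 24 h libraries, so this count is no support for a change of the family. Adamts1 (ENSMUSG00000022893), which cleaves aggrecan and versican and is also known as an inhibitor of vessel growth, had 16.5, 12.98 and 3.87 FPKM in 24 h Tiparp libraries and 18.7, 12.7 and 29.2 FPKM in 24 h control libraries. In sham it had 1.75, 1.29 and 0.911 FPKM in Tiparp libraries and 1.31, 1.23 and 1.09 FPKM in control libraries. All 24 h values exceeded all sham values (15.7 ± 8.36 FPKM at 24 h and 1.26 ± 0.280 FPKM in sham, SD, n = 6 each; difference 2.70, SE 0.31, adjusted p = 0.000407). Adamts4 (ENSMUSG00000006403), an aggrecanase that also cleaves brevican, had 4.42, 8.16 and 3.48 FPKM in 24 h Tiparp libraries, 9.43, 6.59 and 14.1 FPKM in 24 h control libraries and 2.40 to 3.67 FPKM in sham. The control libraries were all above sham, and 24 h Tiparp library 3 was not (difference 1.05, SE 0.24, adjusted p = 0.00977).

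Adamts9 (ENSMUSG00000030022), which cleaves versican and aggrecan, had 3.16, 1.25 and 0.268 FPKM in 24 h Tiparp libraries, 2.77, 1.67 and 3.58 FPKM in 24 h control libraries and 0.181 to 0.318 FPKM in sham. Again 24 h Tiparp library 3 alone lay within the sham range (difference 1.20, SE 0.25, adjusted p = 0.00617). Adamts20, a relative of Adamts9, fell: it averaged 0.899 ± 0.148 FPKM at 24 h and 1.36 ± 0.194 FPKM in sham (SD, n = 6 each), without overlap (difference -0.32, SE 0.08, adjusted p = 0.0204). Adamts5, the neighbour of Adamts1 on chromosome 16 and a further aggrecanase, was below the filter, with 0.253 to 1.09 FPKM at 24 h and 0.0827 to 0.200 FPKM in sham, and these did not overlap. Adamts6 had 0.320 to 0.581 FPKM at 24 h and 0.645 to 0.867 FPKM in sham, lower without overlap and also untested. The procollagen processors Adamts2 (adjusted p = 0.115) and Adamts3 (adjusted p = 0.983) were not called. Over all 69 members, tested or not, 12 did not overlap between 24 h and sham. Of these 8 were tested, and among all tested genes 10.1% did not overlap. Timp1, Mmp3, Mmp9 and Mmp19 were among the 8 and passed the filter only or mainly through 24 h libraries. This count is therefore no support for a change of the families.

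**Figure D3:**
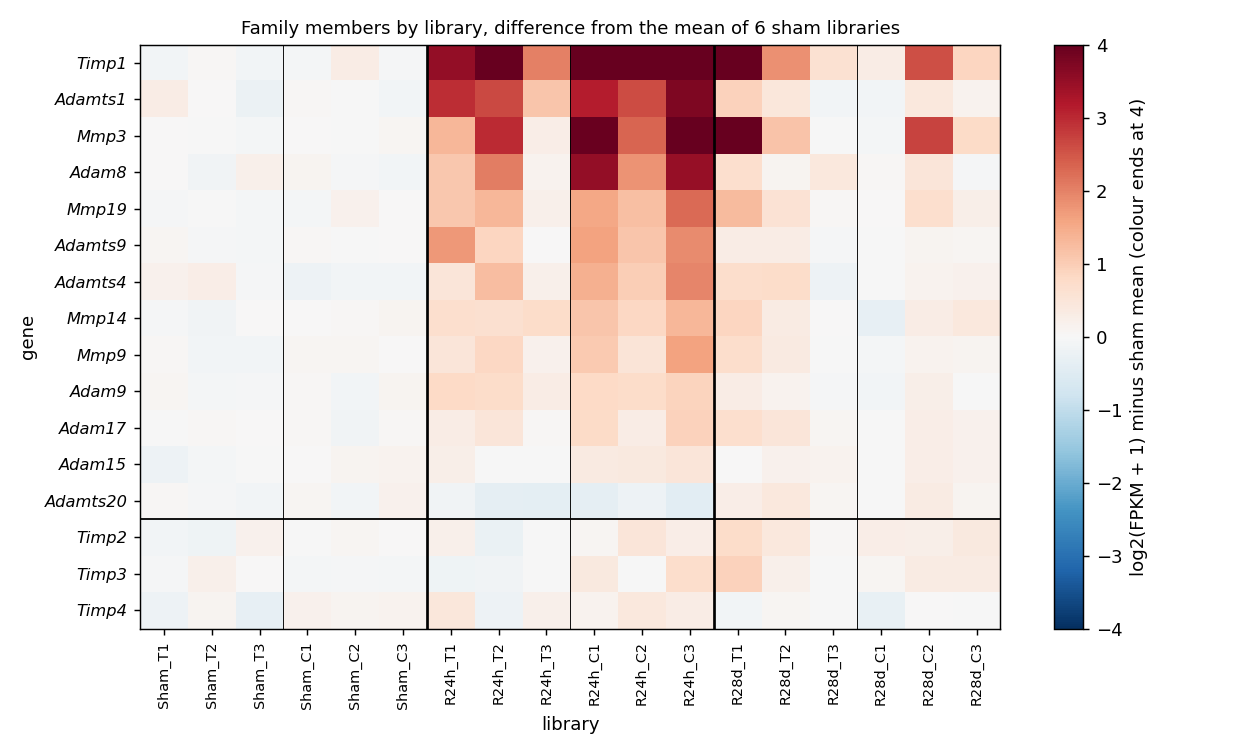
The 13 members called at 24 h and Timp2, Timp3 and Timp4 (rows) in the 18 libraries (columns). Colour gives log2(FPKM + 1) minus the mean of the 6 sham libraries, and the line separates the 13 called members from the uncalled Timp genes. Of the 12 members called higher, 24 h Tiparp library 3 has the lowest 24 h value for 11 and 24 h control library 3 the highest for 11. Over all 31 tested members the numbers are 11 and 13.

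The members called higher at 24 h differed between the libraries of that time. Among the 6 libraries at 24 h, Tiparp library 3 was lowest for 11 of these 12 members and control library 3 highest for 11. Over all 31 tested members, these 12 among them, the numbers were 11 and 13. The factor of median-ratio scaling, taken over the whole table, was also lowest in Tiparp library 3 (0.948) and highest in control library 3 (1.10). The number of the 12 that lay above every sham library was 12, 11 and 7 in 24 h Tiparp libraries 1, 2 and 3 and 12 in each 24 h control library. The 12 were chosen for being higher at 24 h, and no share over all genes was taken for these counts. The mitochondrial genes' share of FPKM was 29.2%, 35.1% and 41.4% in 24 h Tiparp libraries 1, 2 and 3 and 34.3%, 34.8% and 36.1% in 24 h control libraries 1, 2 and 3, against 38.4% to 41.6% in sham. Of the 24 h libraries, Tiparp library 3 alone lay within the sham range. In 24 h control library 3 the striatal sum was 376 FPKM and the neuronal sum 517 FPKM, the highest and the lowest of the 18 libraries. The part of these in the members' values was not tested. Markers of blood-borne and vascular cells differed between the same libraries. The summed FPKM of 8 monocyte and macrophage markers was 21.9 in 24 h Tiparp library 3, where it was lowest, up to 191 in 24 h control library 1, against 4.82 to 7.97 in sham. For 9 neutrophil markers it was 4.44 in 24 h Tiparp library 3 and 200 in 24 h control library 3, where it was highest, against 0.350 to 1.89 in sham; Elane was listed at 0 in 17 libraries, Camp in 13 and Ltf in 8.

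Of the neutrophil list 3 of 9 were called higher at 24 h (5 tested), of the monocyte and macrophage list 5 of 8 (5 tested), of the endothelial list 7 of 7, of the mural cell list 6 of 7 (6 tested) and of the meningeal fibroblast list 6 of 7. The endothelial sum was 20.7 to 89.99 FPKM at 24 h and 9.88 to 12.5 FPKM in sham, and the meningeal fibroblast sum 16.4 to 96.1 FPKM at 24 h and 5.08 to 11.3 FPKM in sham. Of 7 microglial markers, 1 was higher and 3 were lower; of 7 astrocyte markers, 1 was higher and 1 lower; of 7 neuronal markers, 2 were lower. These counts stand beside the 19.3% higher and 5.38% lower of all tested genes. Several markers passed the filter only through 24 h libraries, among them S100a8, Cxcr2, Msr1, Mrc1, F13a1, Tek, Abcc9 and Col1a2. In sham S100a8 had at most 0.436 FPKM, Cxcr2 0.0198, Msr1 0.0434, Mrc1 0.400 and F13a1 0.219 FPKM. For such markers being tested and being higher go together, so the counts of higher markers are no support for a change of a cell type. The part of these cell types in the members' differences was not tested. Leaving out the 3 libraries of the comparison with high Ttr gave 10 called members (10.1% of all tested genes). Leaving out those with high striatal markers gave 9 (13.96% of all tested genes), with Timp1, Mmp3, Mmp14, Mmp19, Adam8, Adam9, Adamts1, Adamts4 and Adamts9 called in both.

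Inhibitors and proteases were also set side by side as sums of FPKM. The 4 Timp genes summed to 113, 99.8 and 89.6 FPKM in 24 h Tiparp libraries and 171, 144 and 197 FPKM in 24 h control libraries, against 78.2 to 91.4 FPKM in sham. Timp1 made up 6.32% to 46.2% of that sum at 24 h and 0.601% to 1.16% in sham, so the make-up of the inhibitor pool differed more than its size. The Mmp sum was 39.1 to 71.9 FPKM at 24 h and 34.6 to 38.3 FPKM in sham, the Adam sum 89.9 to 122 FPKM at 24 h and 70.9 to 95.5 FPKM in sham, and the Adamts sum 19.4 to 62.2 FPKM at 24 h and 17.6 to 20.2 FPKM in sham. Much of the Mmp sum came from Mmp17 and Mmp24; without these, the rest summed to 12.3 to 54.4 FPKM at 24 h and 8.02 to 8.77 FPKM in sham, without overlap.

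The ratio of summed Timp to summed protease FPKM was 0.633, 0.567 and 0.590 in 24 h Tiparp libraries and 0.784, 0.794 and 0.770 in 24 h control libraries, against 0.569 to 0.635 in sham. The ratio was thus above the sham range in the 3 control libraries at 24 h and within or just under it in the 3 Tiparp libraries. At 28 d it was 0.902, 0.776 and 0.622 in Tiparp libraries and 0.680, 0.665 and 0.718 in control libraries, above the sham range in 5 of the 6. No test was run on these sums, which describe RNA and not active enzyme.

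**Figure D4:**
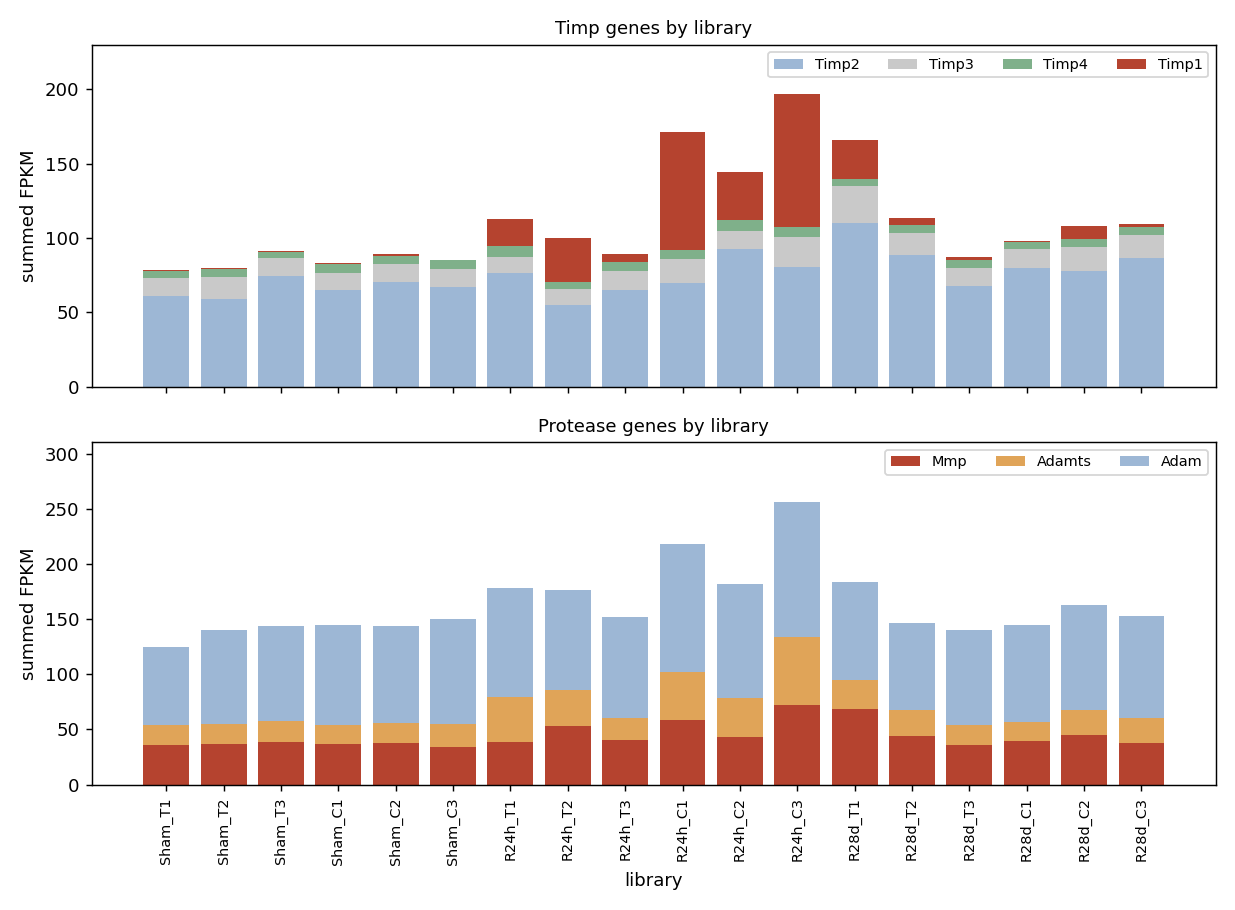
Summed FPKM (y axes, from 0) of the 4 Timp genes (top) and of the Mmp, Adam and Adamts genes (bottom) in each of the 18 libraries (x axis), stacked by gene or family. Timp1 makes up 46.2% of the Timp sum in 24 h control library 1 and 6.32% in 24 h Tiparp library 3, and the Timp sum of 28 d Tiparp library 1, 166 FPKM, exceeds every sham library.

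Genes that activate, inhibit or are cut by these enzymes were read from 3 lists. Of 22 activators, inhibitors and binding partners of matrix metalloproteinases, 19 were tested at 24 h, 9 were called higher and 1 lower (median difference 0.32). The 3 with the greatest rise were Lcn2, lipocalin-2, which binds Mmp9 (35.8 ± 24.9 FPKM at 24 h and 0.234 ± 0.0795 FPKM in sham, difference 4.38, adjusted p = 0.000387), A2m, alpha-2-macroglobulin, a trap for proteases (3.13, adjusted p = 0.000826) and Klk6, a serine protease of oligodendrocytes (2.64, adjusted p = 0.00390). Pcsk6, a proprotein convertase, was the member that fell (-0.46, adjusted p = 0.0311). Of 18 regulators of ADAM and ADAMTS proteins, 12 were tested, 4 were higher and 1 lower (median 0.19): Fn1, fibronectin, rose most (1.89, adjusted p = 0.00116), followed by Adamtsl4 (1.13, adjusted p = 0.0126) and Rhbdf2, the iRhom that carries Adam17 to the surface (0.87, adjusted p = 0.00661), and Tspan33 fell (-0.32, adjusted p = 0.0299).

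Of 39 substrates and binding partners, 34 were tested, 18 were higher and 2 lower (median 0.47). Tnfrsf1a, a TNF receptor shed by Adam17, averaged 22.8 ± 9.73 FPKM at 24 h and 2.92 ± 0.256 FPKM in sham (SD, n = 6 each; difference 2.47, adjusted p = 0.000239), Thbs1, thrombospondin-1, differed by 2.16 (adjusted p = 0.0127) and Cdh5, the endothelial cadherin, by 2.002 (adjusted p = 0.00136). Those that fell were Bcan, brevican, a proteoglycan of the perineuronal matrix cut by Adamts4 (26.7 ± 5.71 FPKM at 24 h and 41.5 ± 1.54 FPKM in sham, difference -0.64, adjusted p = 0.00285), and L1cam, a neuronal adhesion molecule (-0.49, adjusted p = 0.0310). Cdh5 also stood in the endothelial marker list, and the same table-wide share of 24.7% called applies to these 3 lists. Lcn2, low in sham, passed the filter only through 24 h libraries.

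Split by arm, the members' response at 24 h passed the test in the control arm and not in the Tiparp arm, while the test of the difference between the arms called none. In the Tiparp arm 0 of 25 tested members were called against its own sham group (0.222% of 13509 genes), with 6 members at an unadjusted p under 0.05; Timp1 had a difference of 3.30 (SE 0.48, adjusted p = 0.0522), Mmp14 of 0.74 (SE 0.11, adjusted p = 0.0580) and Adamts1 of 2.21 (SE 0.44, adjusted p = 0.101). In the control arm 13 of 28 were called (24% of 13880 genes, 19.8% higher and 4.24% lower): Timp1 (5.17, SE 0.37, adjusted p = 0.00151), Adamts1 (3.19), Mmp3 (3.62), Adam8 (2.95) and 9 others, among them Adam10, called higher (0.39, adjusted p = 0.0243), and Mmp24, called lower (-0.38, adjusted p = 0.0270). The count in the control arm was 4 without 24 h control library 1 (2.41% of all tested genes) and 8 without 24 h control library 3 (15.2%). That in the Tiparp arm was 4 without 24 h Tiparp library 3 (6.23%). Mmp3, Mmp19 and Adamts9 passed the filter in the control arm only through its 24 h libraries, and Timp1 and Adam8 mainly through them. For these genes being tested and being higher go together. Mmp3, Mmp19 and Adamts9 were not tested in the Tiparp arm, so the counts of the arms cover unlike sets of genes.

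The difference of the 24 h responses, Tiparp arm minus control arm, was called for 0 of 31 members and 0 of 14589 genes, with 5 members and 1593 genes at an unadjusted p under 0.05. For each of the 13 members called at 24 h its sign was that of a smaller change in the Tiparp arm, with adjusted p between 0.415 and 0.767. All 13 were read in the same 12 libraries and are not independent. Over all tested genes the median of this difference was -0.088, and -0.016 after median-ratio scaling. That is also the sign found in the members called higher, so the count is no trait particular to them. For Timp1 this difference was -1.87 (SE 0.68), and -1.25 without 24 h Tiparp library 3. It was -2.07 (SE 0.89) for Mmp3, -1.87 (SE 0.68) for Adam8, -1.07 (SE 0.38) for Adamts4 and -0.60 (SE 0.22) for Timp3. Setting the arms side by side at 24 h gave 0 of 28 members and 0 of 14018 genes called (7 members and 1012 genes at an unadjusted p under 0.05), with Timp1 at -1.98 (SE 0.59, adjusted p = 0.668). The macrophage sum was 54.1, 105 and 21.9 FPKM in 24 h Tiparp libraries and 191, 33.0 and 162 FPKM in 24 h control libraries, which overlap, and its part in the difference was not tested.

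In sham, 0 of 24 tested members were called between the arms (0.21% of 13349 genes), with 3 at an unadjusted p under 0.05: Adam15 (-0.20, adjusted p = 0.327), Adamts4 (0.26, adjusted p = 0.337) and Timp4 (-0.29, adjusted p = 0.351). At 28 d 0 of 27 members and 0 of 13779 genes were called between the arms, and no member had an unadjusted p under 0.05 (347 genes did). Timp1 differed there by 0.92 (adjusted p = 0.994), and by -0.02 without 28 d Tiparp library 1. The difference of the 28 d responses was called for 0 of 29 members (0.00702% of 14242 genes), with 1 member at an unadjusted p under 0.05, Timp4 (0.37, adjusted p = 0.956).

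At 28 d no member was called against sham, in a table where 1 of 14242 genes was (0.00702%). Of 29 tested members, 10 had an unadjusted p under 0.05, as had 2463 genes. The smallest were Adamts2, which trims the amino end of procollagens (1.65 ± 0.465 FPKM at 28 d and 0.760 ± 0.173 FPKM in sham, difference 0.58, adjusted p = 0.129), Adam33 (1.22 ± 0.182 FPKM at 28 d and 1.83 ± 0.365 FPKM in sham, difference -0.35, adjusted p = 0.130) and Timp2 (85.3 ± 14.3 FPKM at 28 d and 66.3 ± 5.69 FPKM in sham, difference 0.35, adjusted p = 0.146). The count depended on single libraries: without 28 d Tiparp library 3, 6 members were called (Adam17, Adam33, Adamts2, Adamts4, Timp1 and Timp2), where 1148 of 14195 genes were (8.09%). Without 28 d control library 1, 1 was called (Adamts2), where 3.80% of genes were. Adam33, Mmp2 and Mmp12 did not overlap between 28 d and sham. Of these only Adam33 was tested, so 1 of the 29 tested members did not overlap, where 1.46% of all tested genes did not. Mmp2, which was untested, had 1.97, 1.02 and 0.799 FPKM in 28 d Tiparp libraries and 0.743, 0.910 and 0.768 FPKM in 28 d control libraries, against 0.277 to 0.630 FPKM in sham.

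The 28 d libraries differed widely among themselves for the members that had risen at 24 h. Timp1 had 26.1, 4.95 and 1.51 FPKM in 28 d Tiparp libraries and 1.03, 8.86 and 2.02 FPKM in 28 d control libraries, so that 28 d control library 1 lay within the sham range, while 28 d Tiparp library 1 and 28 d control library 2 lay within the 24 h range (difference from sham 1.70, SE 0.53, adjusted p = 0.155). Mmp3 had 23.4, 1.30 and 0.0364 FPKM in 28 d Tiparp libraries and 0, 5.81 and 0.794 FPKM in 28 d control libraries. Across these 12 members, 28 d Tiparp library 1 was highest of the 6 for 10 and 28 d control library 1 lowest for 9. Over all 31 members tested at 24 h the numbers were 16 and 14, and no share over all genes was taken. The number above every sham library was 11, 11 and 3 in 28 d Tiparp libraries 1, 2 and 3 and 0, 11 and 7 in 28 d control libraries 1, 2 and 3. The macrophage sum was 611, 195 and 20.4 FPKM in the same Tiparp libraries and 7.70, 127 and 133 FPKM in the control libraries. It was highest in the library with the most Timp1 and Mmp3 and lowest in the one with the least Timp1. The part of this sum was not tested. Lyz2 alone averaged 175 FPKM at 28 d (6.11 to 597 FPKM) and 47.8 FPKM at 24 h. Means of Lyz2 and Ms4a7 were higher at 28 d than at 24 h, and those of the other markers in that list were lower.

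Between the times, 28 d against 24 h, 3 of 31 tested members were lower and 1 was higher, where 2.98% of 14756 genes were called (1.47% higher and 1.5% lower). Adamts1 fell to 3.27, 2.05 and 1.09 FPKM in 28 d Tiparp libraries and 1.07, 2.001 and 1.49 FPKM in 28 d control libraries, against 3.87 to 29.2 FPKM at 24 h (difference -2.42, SE 0.35, adjusted p = 0.0189). Adam9 averaged 10.3 FPKM at 28 d and 16.4 FPKM at 24 h (-0.62, SE 0.11, adjusted p = 0.0259), and Adamts9 0.352 FPKM at 28 d and 2.12 FPKM at 24 h (-1.09, SE 0.26, adjusted p = 0.0481). Adamts9, with at most 0.536 FPKM at 28 d, passed the filter only through 24 h libraries, so its call adds no support to the count of lower members. Adamts20 was higher, at 1.71 FPKM at 28 d and 0.899 FPKM at 24 h (0.51, SE 0.09, adjusted p = 0.0275). Timp1 (-2.54, adjusted p = 0.0720), Adam8 (-1.73, adjusted p = 0.0596) and Mmp14 (-0.63, adjusted p = 0.0766) were not called. Of all 69 members, tested or not, 5 did not overlap between 28 d and 24 h. Among tested genes 2.67% did not, a share that leaves out untested genes and so is no like measure for this count. The count of calls was 0 without 24 h control library 1, 28 d control library 2 or 28 d control library 3, where at most 14 genes in all were called. It was 10 without 24 h Tiparp library 3, where 17.9% of genes were.

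In the partner lists at 28 d against 24 h, Bcan was higher (44.2 ± 2.56 FPKM at 28 d and 26.7 ± 5.71 FPKM at 24 h, difference 0.73, adjusted p = 0.0191), as was Pcsk6 (0.68, adjusted p = 0.0444). The urokinase receptor Plaur was lower (-1.90, adjusted p = 0.0477), and among substrates so were Cdh5 (-1.50, adjusted p = 0.0444), Hbegf (-1.44, adjusted p = 0.0321) and Tnf (-1.17, adjusted p = 0.0445), which with Col4a1 made 4 of 35 tested. No regulator of ADAM or ADAMTS proteins was called, in 12 tested. Over all tested genes 1.47% were higher and 1.5% lower at 28 d against 24 h. Tnf was near the floor and listed at 0 in 6 of the 18 libraries. The comparisons of 28 d with 24 h, 24 h with sham and 28 d with sham share libraries pairwise, so their differences are given side by side and not as separate evidence.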

How the data were processed

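RNA of 18 mouse cortex libraries in 6 groups of 3 was deposited as FPKM per gene for 37319 genes. Per the submitters' processing notes the authors mapped reads with HISAT to mm9, quantified FPKM with StringTie and used edgeR, with no versions stated. Libraries were poly(A) selected, stranded and carried molecular identifiers, per the labels' protocols. The depth is unknown, since no read totals were used here, and no interval for counting error is given. The sequencer is named differently in the 2 places that state it.

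From the deposited FPKM, limma 3.58.1 with a mean-variance trend (R 4.3.3, two-sided) was run on log2(FPKM + 1) over the groups compared, for genes that reached 1 FPKM in 3 or more of their libraries. Fits over both arms had arm as a term. P-values were adjusted over all tested genes (Benjamini-Hochberg, 0.05). The fits were tested on simulated data. Tables and figures used Python 3.11.15, pandas 2.3.3 and matplotlib 3.10.9.

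Members follow from gene symbols. The members, roles, marker and partner lists were chosen with earlier results of these data known. Values per library are given for Timp genes and for members called at 24 h with a difference of at least 1, and for partners the 3 greatest changes each way; others named were picked after their values were seen. The values of 1 partner gene are not reported here. All 69 gene identifiers matched GENCODE M21, and promoters come from RefSeq on GRCm38.p6; as the files use mm9, only names, neighbours and sequence were taken from these. Alternatives were the pseudocount, the filter, median-ratio scaling, the replicate block, array weights, 1 fit of all 18 libraries, and libraries left out; leaving out the 4 libraries with Ttr above 500 FPKM for the comparisons that hold 28 d libraries was chosen after seeing the data.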

Additional observations from a re-analysis of the deposited data

How the results depend on the processing

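Calls at 24 h against sham in both arms (13 members) ranged from 9 to 18 over the alternatives and from 9 to 16 when 1 library was left out; Timp1, Mmp3, Mmp14, Mmp19, Adam8, Adam9, Adamts1, Adamts4 and Adamts9 were called in all of them. Median-ratio scaling took the median difference of all genes from 0.097 to 0.0055 in both arms and from 0.13 to 0.0013 in the control arm, and the share of calls that were higher from 78.2% to 58.1% and from 82.4% to 61.0%; Adam15 lost its call there. At 28 d against sham (0 members) array weights gave 4, and single libraries left out 0 to 6. At 28 d against 24 h (4 members) no filter gave 0, array weights 11, the fit of all 18 libraries 11, and leaving out the 4 libraries with Ttr above 500 FPKM 0; single libraries left out gave 0 to 10. In the Tiparp arm at 24 h (0 members) a pseudocount of 0.1 gave 2, scaling 1, array weights 1 and the fit of all 18 libraries 1, and single libraries left out 0 to 4. In the control arm (13 members) leaving out the libraries with high Ttr gave 8, those with high striatal markers 8, and single libraries 4 to 13. Comparisons between arms and of their responses called 0 members in every alternative. The cause of these shifts was not tested.

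Same-numbered libraries were not treated as paired in the main fits. Their deviations correlated at -0.417 to 0.210 over 45 pairs, 4 of them above 0.1, which cannot settle whether they shared a batch. The replicate block gave 12 members at 24 h in both arms, 10 in the control arm, 2 in the Tiparp arm, 0 at 28 d against sham and 3 at 28 d against 24 h.

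Of 1143 recomputed differences of single members, 1014 kept direction and call, 90 lost the call, 14 gained one and 25 changed sign, all 25 among Timp differences that were not called. Timp2 in the Tiparp arm at 24 h (0.0061) became -0.062 with scaling, -0.19 without high Ttr and -0.11 to 0.13 with single libraries left out. Timp2 between arms in sham (-0.065) became 0.14 without high Ttr. Timp4 between arms at 24 h (-0.13) became 0.018 with array weights and -0.27 to 0.049 with single libraries left out. Between arms at 28 d Timp3 (0.12) became -0.045 with array weights, and single libraries left out gave -0.020 to 1.69 for Timp1, -0.065 to 0.28 for Timp2, -0.16 to 0.32 for Timp3 and -0.022 to 0.14 for Timp4. For the difference of 28 d responses Timp2 (0.17) became -0.0346 and Timp3 (-0.0060) 0.037 without high Ttr, Timp2 -0.046 and Timp3 0.12 without the 4 libraries with Ttr above 500 FPKM, and single libraries left out gave -0.000411 to 0.34 for Timp2 and -0.28 to 0.19 for Timp3. Timp4 at 28 d against sham (-0.053) ranged from -0.12 to 0.015 with single libraries left out.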
